A study of Mus musculus with 6 samples.

Results

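The metallothioneins Mt1 and Mt2, 7 zinc transporters and Mtf1 were followed in the livers of insulin-resistant (IR) mice given insulin or its vehicle. These 10 genes were selected by name, with earlier results of the same insulin and vehicle libraries known. Their difference between the groups is therefore given as a description, with its standard error and no test. Calls of these genes, where given, describe the fits and are no evidence of a change. All 10 were found among the 54532 genes of the count table, and all 10 were among the 13377 genes that passed the filter on low counts. The mice were male C57BL/6J animals, with no other allele named in the labels. High-fat diet began at 8 weeks of age and lasted 6 weeks, which is how IR was induced in both groups. After 16 h without food, the IR insulin group (n = 3) was injected intraperitoneally with insulin at 0.75 units per kg, and the IR vehicle group (n = 3) with bovine serum albumin (BSA). Whole liver was taken 6 h after the injection, and each library came from 1 mouse. No chow-fed group entered the comparison, so the values describe the insulin response only within the IR state. The libraries are written V1 to V3 (vehicle) and I1 to I3 (insulin).

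Zinc enters the cytosol through the Slc39a (ZIP) family and leaves it through the Slc30a (ZnT) family, towards the outside of the cell or into vesicles and organelles. Metallothioneins are small cysteine-rich proteins that bind zinc and copper, and the liver is a major site of their synthesis. MTF1, encoded by Mtf1, is the transcription factor that senses free zinc and binds metal response elements in the promoters of Mt1, Mt2 and Slc30a1. Both metallothionein genes and Slc39a14 are also known to respond to inflammatory cytokines, and the metallothionein genes to glucocorticoids.

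Promoter sequence was available for most of these genes. The 300-base windows of RefSeq (build GRCm38.p6) hold 250 bases before the start and 50 after it, and 8 of the 10 genes had one. The exceptions were Slc39a4 and Slc39a14. Both strands were searched for the core of the metal response element, spelled TGCACNC or TGCGCNC. Mt1 held 3 matches, Mt2 held 4, Slc30a1 held 2 and Slc30a10 held 3, of which 2 overlap each other on opposite strands. Slc39a1, Slc39a7, Slc30a7 and Mtf1 held none. Of the 32851 windows of the same length in the mouse set, 25.7% held at least 1 match, 7.11% at least 2, 1.97% at least 3 and 0.517% at least 4. With TGCACNC alone, 3 of the 8 windows held a match (Mt1, Mt2 and Slc30a1), against 12.6% of all windows. The promoters printed here set the metallothionein genes (Mt1 and Mt2) and the exporter known as an MTF1 target (Slc30a1) beside the importer with the largest difference between the groups (Slc39a7). Each run covers 250 bases before the start and 30 after it, 5′ to 3′ along the gene, and capitals mark a match. A match on the opposite strand reads in reverse complement. The regions are chr8:94178839-94179118 for Mt1 and chr8:94172368-94172647 for Mt2, both on the plus strand, chr1:191906531-191906810 for Slc30a1 on the plus strand, and chr17:34031661-34031940 for Slc39a7 on the minus strand.
Mt1: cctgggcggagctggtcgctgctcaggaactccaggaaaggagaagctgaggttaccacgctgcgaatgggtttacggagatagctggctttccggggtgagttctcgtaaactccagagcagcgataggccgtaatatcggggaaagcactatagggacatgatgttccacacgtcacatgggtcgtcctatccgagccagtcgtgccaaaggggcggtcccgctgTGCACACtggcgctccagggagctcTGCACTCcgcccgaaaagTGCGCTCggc
Mt2: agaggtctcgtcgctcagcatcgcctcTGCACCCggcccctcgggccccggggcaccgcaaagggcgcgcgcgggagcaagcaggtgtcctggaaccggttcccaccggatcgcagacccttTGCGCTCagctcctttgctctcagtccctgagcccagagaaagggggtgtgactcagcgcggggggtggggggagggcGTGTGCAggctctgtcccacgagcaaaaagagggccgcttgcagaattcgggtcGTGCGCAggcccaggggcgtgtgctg
Slc30a1: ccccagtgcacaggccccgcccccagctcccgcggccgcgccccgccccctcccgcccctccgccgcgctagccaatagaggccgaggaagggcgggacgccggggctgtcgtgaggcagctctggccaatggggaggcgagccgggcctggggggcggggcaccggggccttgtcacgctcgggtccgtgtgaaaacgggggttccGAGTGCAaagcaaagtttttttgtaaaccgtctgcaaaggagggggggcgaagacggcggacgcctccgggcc
Slc39a7: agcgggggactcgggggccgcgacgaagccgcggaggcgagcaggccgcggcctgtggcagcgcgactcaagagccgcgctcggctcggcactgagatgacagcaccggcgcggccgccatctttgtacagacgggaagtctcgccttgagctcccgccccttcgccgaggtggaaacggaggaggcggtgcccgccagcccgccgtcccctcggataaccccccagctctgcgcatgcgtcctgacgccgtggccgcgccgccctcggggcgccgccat
In Mt1 the 3 matches lie at -23 to -17, 3 to 9 and 21 to 27 (the start base is 1), so they cluster around the RefSeq start. That start is an annotated one, and where transcription begins in these livers was not measured. Sequence beyond the window, where more matches could lie, was not searched. In Mt2 they spread from -223 to 11 of the RefSeq start. The gene model used below for the distance to Mt1 starts later, at 94172664, and the window ends at 94172667. Nearly all of the Mt2 window thus lies before that start, and no stretch of it could be matched to an Mt2 transcript. The second match of Slc30a1, at 31 to 37, lies just past the printed stretch. A match is a run of letters and not a measured binding site.

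Libraries held 18449986 to 21827619 counts, and levels are given as CPM, which are counts scaled to library size after TMM normalization (50 counts come to 2.44 CPM). The tissue label held: Alb, the hepatocyte product albumin, took 4.18% to 7.07% of the counts in 5 libraries and 11.5% in V2. V2 stood apart in other ways too. It had 16470 genes with a count against 18389 to 18874 in the rest, and the log2 level against the GC content of the transcript had a slope of -1.13 for each 10 percentage points, where the other slopes ran from -0.064 to 0.19. V3 also lay apart over all genes tested. The highest correlation of log2 levels with another library was 0.921 for V2 and 0.954 for V3. For V1, I1, I2 and I3 it was 0.982 to 0.988. V1 correlated best with an insulin library, I2 (r = 0.988), so differences between the groups often rest on V2 and V3. Summed erythroid markers ran from 406 to 1234 CPM in vehicle and from 299 to 460 CPM in insulin livers, and neutrophil markers from 3.34 to 70.8 CPM against 26.4 to 59.5 CPM. The same sums ran from 183 to 309 and 225 to 436 CPM for Kupffer cells, 99.3 to 184 and 114 to 124 CPM for sinusoidal endothelium, 149 to 219 and 115 to 194 CPM for stellate cells, 5.06 to 9.70 and 5.84 to 12.6 CPM for bile duct and 4.28 to 31.9 and 2.54 to 9.41 CPM for B cells. Hepatocyte markers summed to 65110 to 153500 CPM in vehicle and 54040 to 68740 CPM in insulin livers. In each of these lists the ranges of the groups overlapped, and no gene was at 0 in all libraries. Of the 6 pancreatic acinar markers, 4 (Cpa1, Ctrb1, Pnlip and Cel) were at 0 in every library, and the list summed to 15.3 to 18.5 and 14.9 to 15.5 CPM. The part of GC content or of other cell types in the results was not tested. Values without V2 are given for some genes and lists only, and they can differ in size or sign. In whole liver, fewer cells of a type and less RNA per cell cannot be told apart.

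Mt1 was by far the most abundant of the 10 transcripts, and its difference between the groups was about as large as its standard error. Its level was 2405, 1201 and 936.8 CPM in V1 to V3 and 2387, 2469 and 1389 CPM in I1 to I3. V1 lay among the insulin livers, V2 and V3 were low, and the groups overlapped. The means were 1514 ± 783 CPM for vehicle and 2082 ± 601 CPM for insulin (SD, n = 3), a log2 fold change of 0.46 ± 0.42 (SE) in edgeR. Mt1 kept its sign in all 13 alternative analyses, from 0.21 without V3 to 0.96 without V1, and the last passed the calling criteria given below.

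Mt2, the neighbouring gene of the same chromosome, followed Mt1 loosely over the libraries (Pearson r = 0.30, and 0.73 without V2). It was listed at 30.3, 84.35 and 16.65 CPM in the vehicle livers and at 44.03, 44.29 and 7.103 CPM in the insulin livers. The highest value was a vehicle library (V2) and the lowest an insulin library (I3), and the groups overlapped. The means were 43.8 ± 35.8 and 31.8 ± 21.4 CPM (SD, n = 3), and the log2 fold change was -0.46 ± 0.75 (SE). Without V2 it was 0.45, and with an offset for GC content -1.11. Without I3 it was 0.03, so the direction of Mt2 turned when either extreme library was left out, and also with quality weights.

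The Mt1 gene starts 6418 bases after the Mt2 gene on chromosome 8 (build 38), and 5513 bases separate them. Their counts stood at 79.4, 14.2 and 56.3 Mt1 counts per Mt2 count in V1 to V3 and at 54.2, 55.7 and 195.5 in I1 to I3. V3, I1 and I2 gave nearly the same ratio, while V2 lay below them and I3 above. The log2 of the ratio averaged 5.32 ± 1.31 in vehicle and 6.39 ± 1.06 in insulin livers (SD, n = 3), and the ratios of the groups overlapped. The counts of Mt2 carry a limit that those of Mt1 do not. Of its 588 exonic bases, 156 (26.5%) lie outside the exons of other genes, the rest being shared with the antisense gene Gm45774, which had 0 to 9 counts. Scaled to the bases that belong to each gene alone in the spliced transcripts, the ratio was 22.6, 4.05 and 16.0 in V1 to V3 and 15.4, 15.8 and 55.6 in I1 to I3.

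**Figure D1:**
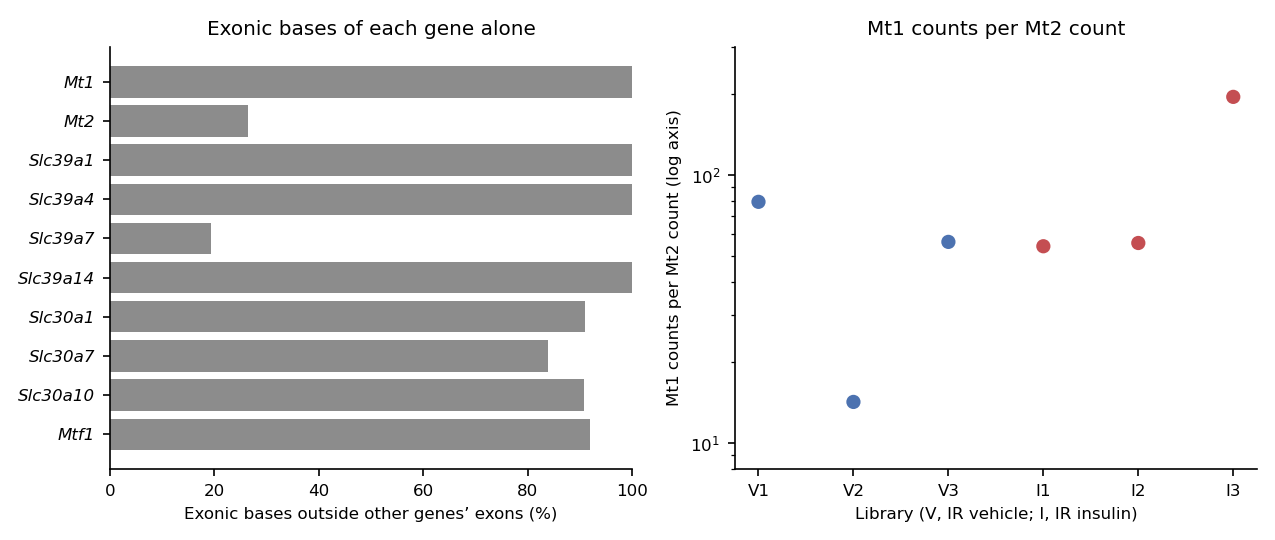
Left, share (%) of the exonic bases of each of the 10 genes that lies outside the exons of all other genes. Mt2 (26.5%) and Slc39a7 (19.3%) stand far below the others. Right, Mt1 counts per Mt2 count in each library on a log axis (V, IR vehicle, blue; I, IR insulin, red), with V2 lowest at 14.2 and I3 highest at 195.5.

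Genes that share all of their exonic bases were mostly without counts. Of 43 protein-coding genes that have exonic bases of their own when only their strand is considered but none when both strands are, 40 (93.0%) were at 0 in all 6 libraries, as were 168 of 176 (95.5%) genes with no exonic base of their own on either strand. Among the 15386 protein-coding genes whose exonic bases are all their own, 5001 (32.5%) were at 0. Levels of Mt2 and Slc39a7 are therefore read per kilobase of their own exonic bases below. As the counting settings are not given in the sources used here, that scale is an assumption.

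Slc39a7, which encodes the importer ZIP7 that releases zinc from the endoplasmic reticulum and Golgi into the cytosol, was the gene with the largest difference. It had 53, 13 and 26 counts in V1 to V3 and 93, 109 and 147 counts in I1 to I3, or 2.802, 0.7981 and 1.24 CPM against 4.187, 4.719 and 6.781 CPM. Every insulin liver lay above every vehicle liver. The means were 1.61 ± 1.05 and 5.23 ± 1.37 CPM (SD, n = 3), with a log2 fold change of 1.69 ± 0.49 (SE) in edgeR. It stood at 1.38 without V2, 1.52 without V3, 2.35 without V1, 1.33 with the GC offset and 1.14 with quality weights for the libraries in limma. These levels are low. If shared bases went uncounted, they rest on 500 of 2584 exonic bases (19.3%). The same-strand transcript Gm20427, with 0 or 1 counts per library, covers the others. The gene lies on chromosome 17 from 34028269 to 34031682 (minus strand), and its transcript has a GC content of 57.5%. V2 deviated from the median of the other libraries by -2.26 on the log2 scale, and V3 by -1.68. In V2, genes in the nearest ranges of GC content had medians of -1.02 and -1.19.

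A gene is called here where its absolute log2 fold change was at least 0.35 with an unadjusted p under 0.05, the criteria in the methods of the study. The study applied them with DESeq2, whereas the main fit here was edgeR. With DESeq2, 548 of 23040 genes were called here, 175 higher and 373 lower. Neither count is the study's own. By that rule 383 of the 13377 genes tested (2.86%) were called, 134 higher (1.0%) and 249 lower (1.86%) with insulin, and the balance depended on the fit: 92 higher and 379 lower with the GC offset, 108 and 105 with quality weights, and 203 and 118 with the replicate number as a block. Of the 10 genes 1 was called, Slc39a7, which was also the only one of them whose groups did not overlap, against 1644 genes (12.3%) over the whole table. Since the 10 were selected with this contrast known, nothing is read from these counts. No gene of the table had an adjusted p under 0.05 (0%) in edgeR, although 383 were called at an unadjusted p, and DESeq2 and limma gave 0 as well. The smallest adjusted p was 0.852 in edgeR and 0.237 in DESeq2.

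**Figure D2:**
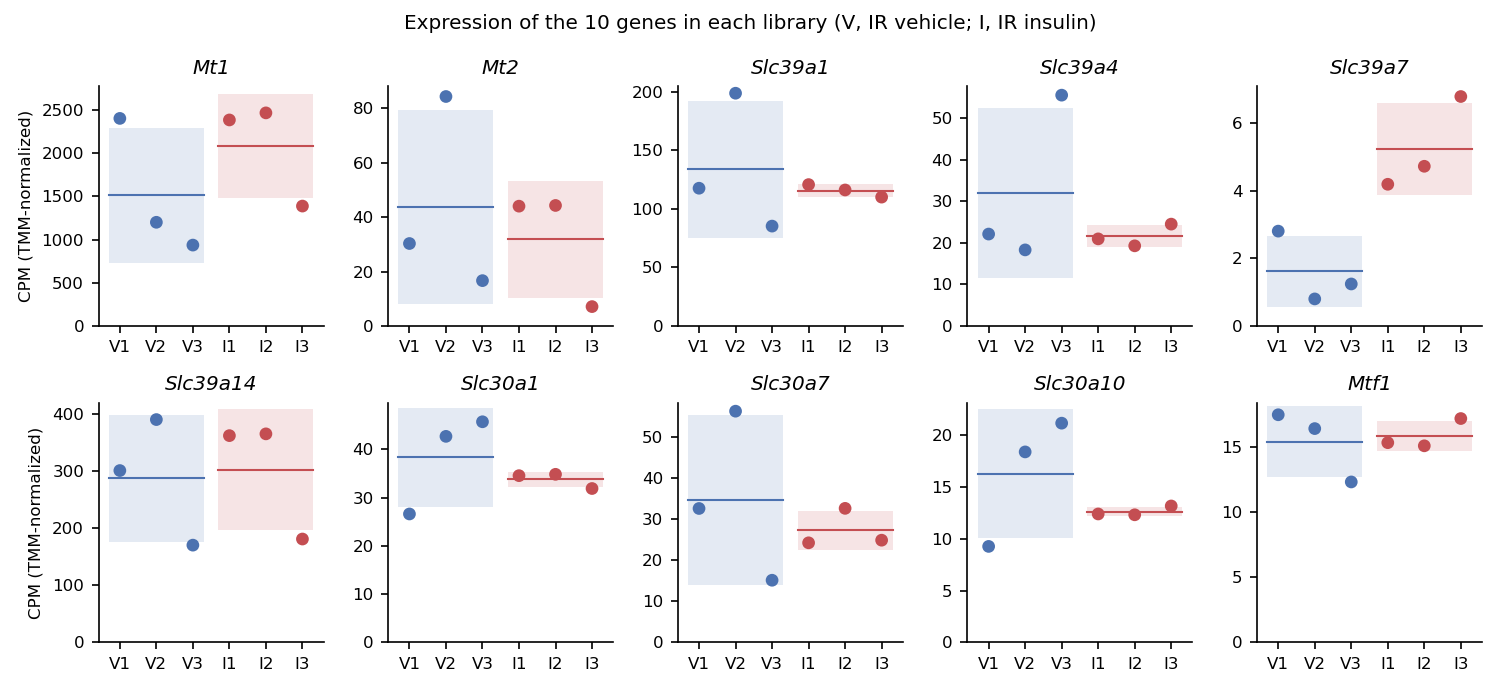
Level of each of the 10 genes in each library in TMM-normalized CPM (V, IR vehicle; I, IR insulin). Points are single livers, lines the group means and shaded bands ± 1 SD (n = 3). The groups are apart for Slc39a7, with vehicle at most 2.802 and insulin at least 4.187 CPM, and overlap for the other 9 genes.

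The other 3 importers had groups that overlapped. Slc39a14 (ZIP14) brings zinc, iron and manganese into hepatocytes. It was at 300.7, 389.9 and 170.2 CPM in V1 to V3 and at 361.8, 364.9 and 180.9 CPM in I1 to I3. Each group held 1 low library, V3 and I3, with the rest between 300.7 and 389.9 CPM. Its log2 fold change was 0.08 ± 0.39 (SE), and 0.37 without V2. Over the 6 libraries its log2 level followed that of Mt2 (Pearson r = 0.91, and 0.90 without V2), and that of Mt1 less closely with all libraries (r = 0.61) but more closely without V2 (r = 0.95). These are descriptions over 6 libraries that share their depth and composition.

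Slc39a1 (ZIP1) is a broadly expressed importer of the plasma membrane. It was measured at 117.7, 198.9 and 85.32 CPM in the vehicle livers and at 120.8, 116.2 and 110.1 CPM in the insulin livers. The insulin livers were tightly grouped, inside the range of the vehicle livers, and the log2 fold change was -0.21 ± 0.32 (SE), or 0.19 without V2. A near-identical copy, Slc39a1-ps (97.7% over 973 bases), had 64 counts in all, and how reads were divided between the copies is not given in the sources used here.

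Slc39a4 (ZIP4), known as the importer of dietary zinc in the intestine, was at 22.1, 18.29 and 55.52 CPM in V1 to V3 and at 20.94, 19.27 and 24.49 CPM in I1 to I3. V3 alone stood high, and the other 5 libraries lay between 18.29 and 24.49 CPM. The log2 fold change was -0.57 ± 0.42 (SE), and 0.09 without V3. It reached -0.84 without V2 and -0.89 with the GC offset, and both of these met the calling criteria.

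The groups overlapped for all 3 of the exporters chosen, Slc30a1, Slc30a10 and Slc30a7. Slc30a1 (ZnT1), the exporter of the plasma membrane and an MTF1 target, was at 26.6, 42.67 and 45.69 CPM in V1 to V3 and at 34.53, 34.81 and 31.87 CPM in I1 to I3. V1 was the lowest library and V2 and V3 the highest, so that the insulin livers lay between them. The log2 fold change was -0.18 ± 0.25 (SE). V1, the highest vehicle library for Mt1, was thus the lowest of all for Slc30a1.

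Slc30a10 (ZnT10), known chiefly as a manganese exporter of liver and intestine, also had V1 lowest and V2 and V3 highest. It was at 9.253, 18.36 and 21.13 CPM in the vehicle livers and at 12.38, 12.3 and 13.15 CPM in the insulin livers, a log2 fold change of -0.37 ± 0.32 (SE). Its log2 level ran with that of Slc30a1 (r = 0.97, and 0.96 without V2) and opposite to that of Mt1 (r = -0.89, and -0.87 without V2). Without V1, Slc30a10 met the calling criteria at a log2 fold change of -0.64.

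Slc30a7 (ZnT7) loads zinc into the Golgi and early secretory pathway. Its 6 values were 32.57, 56.23 and 15.12 CPM in V1 to V3 and 24.22, 32.6 and 24.86 CPM in I1 to I3. Both extremes were vehicle livers, V2 high and V3 low, and the log2 fold change was -0.35 ± 0.43 (SE). It moved to 0.20 without V2 and to -0.71 without V3, where it met the calling criteria. Its pattern over the libraries was close to that of Slc39a1 (r = 0.94, and 0.88 without V2). Both genes were highest in V2 and lowest in V3, libraries that stood apart over all genes. Without V2, Slc39a1 also ran with Mt1 (r = 0.93) and opposite to Slc39a4 (r = -0.98). The pairs named in this report are some of all pairs among these genes and are descriptions only.

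Mtf1 itself had the smallest spread of the 10 genes, with a pooled SD within groups of 0.20 on the log2 scale. It was at 17.45, 16.39 and 12.3 CPM in V1 to V3 and at 15.31, 15.07 and 17.16 CPM in I1 to I3, with means of 15.4 ± 2.72 and 15.8 ± 1.14 CPM (SD, n = 3). The log2 fold change was 0.04 ± 0.23 (SE). An mRNA level carries no measure of how much MTF1 is in the nucleus. Its exons overlap those of 1110065P20Rik on the opposite strand (22 to 419 counts), and 91.9% of its exonic bases are its own.

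**Figure D3:**
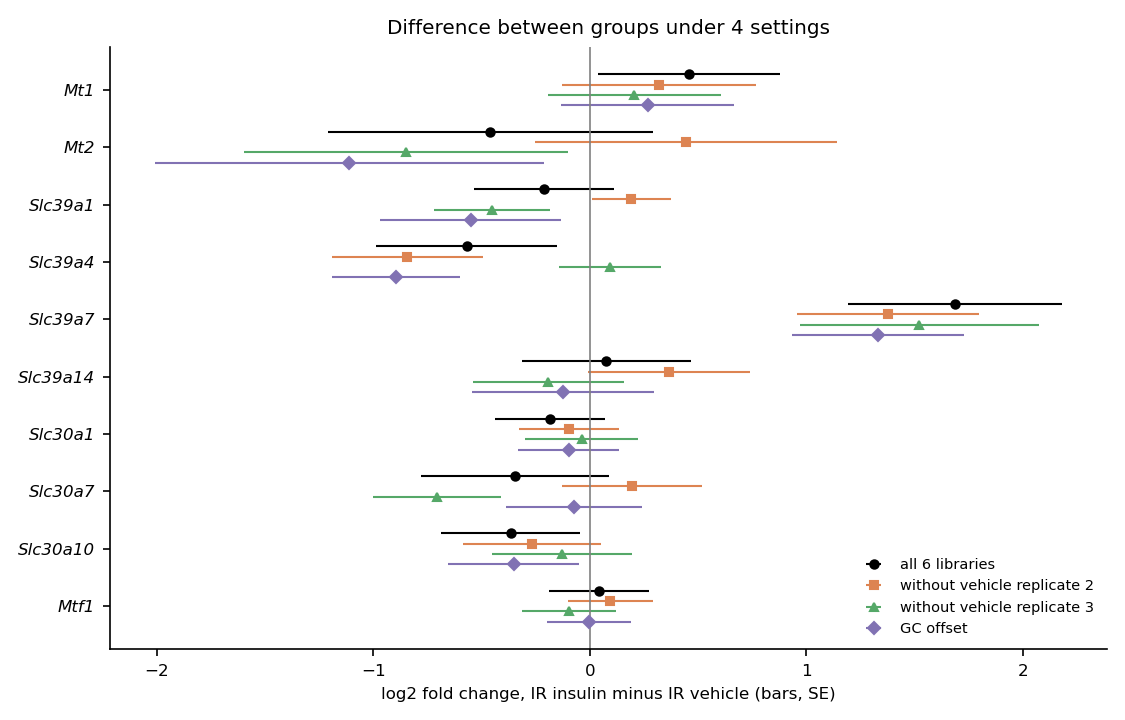
Log2 fold change (IR insulin minus IR vehicle) with SE bars for the 10 genes, with all 6 libraries (black circles), without V2 (orange squares), without V3 (green triangles) and with a GC offset (purple diamonds). Slc39a7 lies right of 0 in all 4, between 1.33 and 1.69, Mt1 lies right of 0 with smaller values, and Mt2, Slc39a1, Slc39a4, Slc39a14, Slc30a7 and Mtf1 lie on both sides.

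Of the 10 log2 fold changes, 4 were above 0 and 6 below, and 6 were smaller than their own standard error. The median was -0.20, beside -0.02 over all genes tested, and without V2 it was 0.19, with 7 genes above 0 and 3 below. Only Mt1 and Slc39a7 kept their sign in all 13 alternative analyses.

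Per kilobase of own exonic bases, summed over all annotated transcripts (1246 for Mt1, against 549 in the spliced transcript used for the ratio above), the mean over the 6 libraries placed Mt1 first at 1443 CPM per kb, followed by Mt2 at 242, Slc39a1 at 52.8 and Slc39a14 at 27.9 CPM per kb. Mt1 exceeded Mt2, and Slc39a1 exceeded Slc39a14, in all 6 libraries, while Mt2 exceeded Slc39a1 in 5 and Slc39a14 exceeded Slc39a4 in 5. Slc39a4 (8.62), Slc30a1 (7.54) and Slc39a7 (6.84 CPM per kb) were not ordered beyond their spread over the 6 libraries. Slc39a4 was above Slc30a1 in 3 of 6 libraries and Slc30a1 above Slc39a7 in 2 of 6. On this scale Slc39a7 ran from 1.60 to 5.60 CPM per kb in vehicle livers and from 8.37 to 13.6 CPM per kb in insulin livers. It lay above both Slc39a4 and Slc30a1 in all 3 insulin livers, and below Slc39a4 in all 3 vehicle livers. The order in insulin livers depends on the scale. Per kilobase of the longest transcript, Slc39a7 was there at 1.721 to 2.787 CPM, below Slc39a4 (7.005 to 8.907) and Slc30a1 (6.078 to 6.637). Slc30a7 (3.31), Slc30a10 (2.72) and Mtf1 (1.91 CPM per kb) followed, with Slc30a7 above Slc30a10, and Slc30a10 above Mtf1, in 5 of 6 libraries.

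The vehicle livers varied more than the insulin livers. The SD of the log2 level was larger in vehicle for 9 of the 10 genes, with Mt2 as the exception, and for 85.2% of all genes tested. Its median was 0.67 in vehicle and 0.21 in insulin livers for the 10 genes, beside 0.52 and 0.18 over all genes, so the wide vehicle group was shared with the whole table. V2 held the highest level of 4 of the 10 genes and V3 the lowest of 5. Over all genes V2 was highest in 35.8% and lowest in 37.4%, and V3 in 23.4% and 23.8%.

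**Figure D4:**
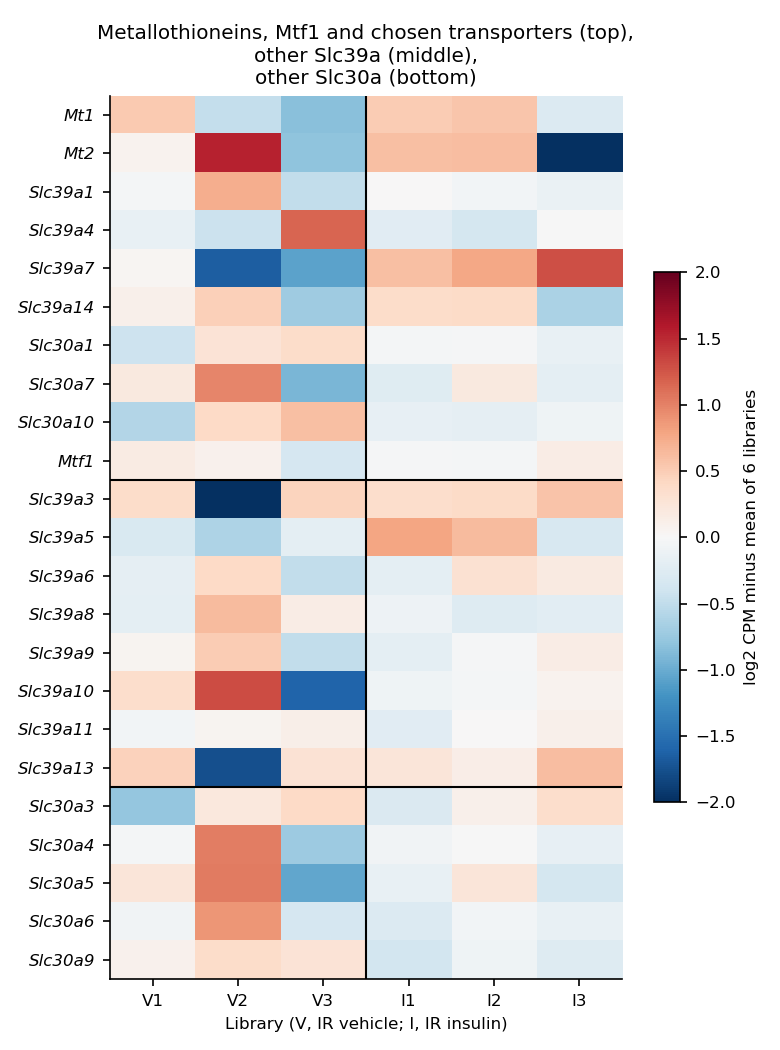
Log2 CPM of each gene minus its mean over the 6 libraries (color scale, log2 units, capped at 2 on either side) for the 10 genes described, the other importers tested and the other exporters tested. The columns V2 and V3 carry most of the strong colors, with Slc39a7 at -1.65 and -1.07 there and Mt2 at 1.54 and -0.80, and I3 holds the lowest Mt2 value at -2.01.

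The deviations of V2 were set against GC content, the property in which it differed from the other libraries. At the low end, Slc30a7 (43.3% GC) was 1.17 above the median of the other 5 libraries on the log2 scale, a side shared with most genes of that GC content. Mt1 (52.9% GC) was at -0.99 and Slc39a7 (57.5% GC) at -2.26, again on the side of most genes. Mt2 (55.6% GC) went the other way and was 1.47 above, where the gene median at 55.7% GC was -0.86 and the 90th percentile was 0.056. Slc39a1 (53.2% GC) was 0.78 above, also past the 90th percentile of genes at 52.7% GC, 0.46.

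**Figure D5:**
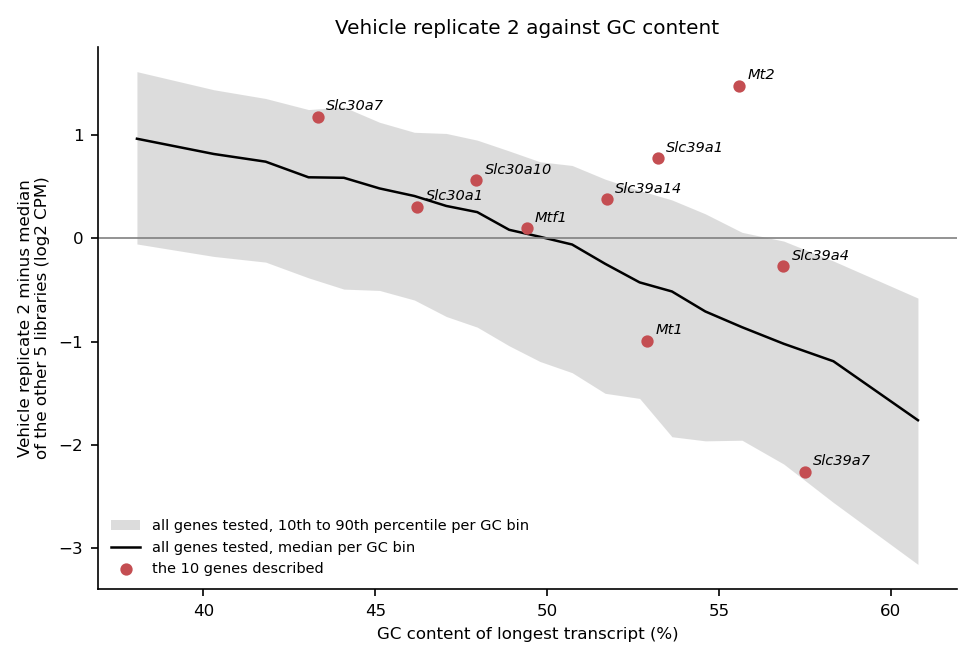
Level in vehicle replicate 2 minus the median of the other 5 libraries (log2 CPM) against the GC content of the longest transcript (%), for the 10 genes (red points) and for all genes tested in bins of GC content (black line, median; grey band, 10th to 90th percentile). The line falls from 0.96 at 38.1% GC to -1.76 at 60.8% GC, with Mt2 (1.47) and Slc39a1 (0.78) above the band and Slc39a7 (-2.26) near its lower edge.

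Further zinc transporters, other metallothioneins, genes linked to MTF1, copper genes and cytokine and glucocorticoid genes made up 6 pathway lists. In edgeR, 1 of the 43 genes tested from them (of 50 listed) was called, a share near the 2.86% of all genes. That gene was Slc30a9, which moves zinc out of mitochondria, at 58.48, 71.03 and 66.58 CPM in V1 to V3 and 42.73, 51.95 and 46.13 CPM in I1 to I3. All 3 insulin livers lay below all 3 vehicle livers, and the log2 fold change was -0.48 ± 0.21 (SE; edgeR, unadjusted p = 0.0493, adjusted p = 0.852). Slc30a9 met the criteria in 3 of the 13 alternatives (RLE factors, without V1 and without V2). The other exporters tested (5 of 7 listed) were called higher in 0 cases and lower in 1, with a median log2 fold change of -0.38. Slc30a5 was called as well, as lower, without V3 (-0.76). Slc30a6 (-0.41 ± 0.34) and Slc30a4 (-0.35 ± 0.41) came next by p and were not called. Without V2 the median over the other exporters was 0.16, with Slc30a6 at 0.04 and Slc30a4 at 0.26.

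None of the 8 other importers tested (of 10 listed) was called (Slc39a10 was, as lower, without V3), and their median log2 fold change was 0.04. The gene nearest the threshold was Slc39a5, an importer known from intestine, pancreas and liver. It had 15, 10 and 18 counts in V1 to V3 and 40, 37 and 17 in I1 to I3, giving a log2 fold change of 0.88 ± 0.47 (SE; edgeR, unadjusted p = 0.0981, adjusted p = 0.852). I3 lay within the vehicle range. Slc39a3 (59.4% GC) dropped in V2 alone, at 2.333 CPM against 13.19 to 15.45 CPM elsewhere. Slc39a13 (59.7% GC) was low there too, at 2.578 CPM against 9.827 to 13.7 CPM elsewhere. Their V2 deviations, -2.48 and -2.04 on the log2 scale, lay on the side of most genes of that GC content. The 10th percentile of genes in V2 was -2.56 at 58.3% GC and -3.16 at 60.8% GC. Slc39a8 (ZIP8), the closest relative of Slc39a14, had a log2 fold change of -0.42 ± 0.26, or -0.17 without V2. Slc39a2, Slc39a12, Slc30a2 and Slc30a8 had at most 5 counts in any library and were not tested. Mt3 had 0 to 2 counts per library and Mt4 had 0, so that in this liver tissue metallothionein counts came from Mt1 and Mt2.

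Of the 4 genes linked to MTF1, none was called (Ndrg1 was without V1), and the median was -0.05 (-0.15 without V2). Ndrg1, a stress-responsive gene, had a log2 fold change of -0.81 ± 0.47. V3 alone stood high for Ndrg1, at 13.83 CPM against 2.952 to 6.63 CPM elsewhere, and without V3 the value was -0.22. Csrp1, a LIM-domain protein gene, was at 0.46 ± 0.33, and Gclc, the catalytic subunit for glutathione synthesis, at -0.29 ± 0.29. None of the 10 copper genes tested (of 11 listed) was called (Commd1 was without V1), with a median of -0.20 (0.03 without V2). Nearest were Commd1 (-0.75 ± 0.40), the copper importer gene Slc31a1 (-0.47 ± 0.30) and the copper chaperone gene Atox1 (0.39 ± 0.26). Without V2 these log2 fold changes were -0.17, -0.10 and 0.21. The chaperone gene Sco2 was at 0 in every library, and its exons overlap those of its neighbours.

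None of the 16 genes of the cytokine and glucocorticoid response was called, and their median was 0.20. With the GC offset the median was -0.06, with 7 genes above 0 and 9 below. This count turned on the libraries used. Without V1, Saa1, Saa2, Orm1 and Lcn2 were called higher and Sgk1 lower, without V2 Tsc22d3 was called lower, and without V3 Per1 was called higher and Nr3c1 lower. Over all genes the same fits called 1349 of 13750 without V1, 508 of 13760 without V2 and 888 of 13634 without V3. Saa1, an acute-phase protein gene, was at 4370, 252.4 and 217.3 CPM in V1 to V3 and at 5070, 4570 and 6803 CPM in I1 to I3. V2 and V3, low in Mt1, were thus also low in Saa1, whereas I3, the lowest insulin liver for Mt1, Mt2 and Slc39a14, had the highest Saa1. All 3 insulin livers were above all 3 vehicle livers, but the difference was not called, at a log2 fold change of 1.76 ± 1.07 (SE; edgeR, unadjusted p = 0.138, adjusted p = 0.852). Without V1 the log2 fold change of Saa1 was 4.55 ± 0.36 (SE; edgeR, unadjusted p = 1.02e-05, adjusted p = 0.114), and with the replicate block it was 3.34 ± 1.03 (SE), also called, as it was without the filter on low counts. Fkbp5 (-0.47 ± 0.25) and Sgk1 (-0.55 ± 0.32), both induced by glucocorticoids, were not called, but Fkbp5 was with the GC offset (-0.62 ± 0.22) and Sgk1 without V1 (-0.79 ± 0.27).

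Genes with the most similar pattern were sought among 9170 genes with a mean of at least 5 CPM, by Pearson correlation of log2 CPM over the 6 libraries. For the mean of Mt1 and Mt2 they were Trmt10c (r = 0.986), Sat1 (0.983), Ets2 (0.970), Hipk1 (0.969) and Serpinb6b (0.964). That mean joins 2 genes that followed each other only loosely (r = 0.30). For Mt1 alone the genes were Senp3 (r = 0.987), Mipep (0.987), Lgals1, Pxk and Pnn. For Mt2 alone they were Zfp369 (r = 0.988), Rbm12 (0.975), Gm45871, Vcam1 and Sat1. Of the genes listed for the mean, only Sat1 recurred. Sat1 encodes the enzyme that acetylates spermidine and spermine. For Slc39a7 they were Hcfc1 (r = 0.996), Klhl18 (0.994), Khsrp (0.993), Phf2 (0.990) and Dnajb2 (0.989). These values are the highest of many over 6 libraries that share depth and composition, and they are a description only.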

How the data were processed

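Whole-liver RNA from 6 mice was sequenced. Per the study's methods and the submitters' processing notes, the authors made libraries with the NEBNext Ultra kit, sequenced on an Illumina HiSeq and aligned reads with Bowtie2 2.2.3 to mm10. Values in the deposited file were raw read counts, a whole number for each gene and library, left unscaled and unpooled by the authors. The counting program, annotation release and strand setting are not given in the sources used here, so counts of overlapping genes are uncertain. Reads that cross exon junctions can be lost where alignment is not spliced, and such loss was not tested. Groups and replicate numbers came from the sample labels.

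Groups were compared with edgeR 4.0.16 (quasi-likelihood F test, TMM, filterByExpr with a minimum count of 10 and total of 15, no covariate, R 4.3.3), with Benjamini-Hochberg adjustment over all 13377 genes kept. SEs came from the F statistic. The spread between mice (biological coefficient of variation 0.357) limited precision. Log2 levels used a prior count of 2. Alternatives were RLE and upper-quartile factors, no filter, DESeq2 1.42.0, limma 3.58.1 (voom with quality weights), an offset for GC content (loess span 0.5), the replicate number as a block, and leaving out each library. Lengths, exons and GC content came from GENCODE gene models of build 38, and promoters from RefSeq. The scripts were tested on simulated data.

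The genes, pathway and marker lists were chosen with earlier results of these data known. Besides the 10 genes, those named were up to 3 per pathway list with the smallest p, the 5 most similar to the metallothionein mean and to Slc39a7, and Alb. Genes with few or no counts, overlapping genes and copies, and genes called only in an alternative were named after their values were seen. The same holds for Slc39a13 and for the genes most similar to Mt1 or Mt2 alone.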

Additional observations from a re-analysis of the deposited data

How the results depend on the processing

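Of the genes in the table, 383 met the calling criteria in edgeR, 548 with DESeq2, 742 without the filter on low counts and 213 with voom quality weights. The count was 99 to 1349 when 1 library was left out (1349 without V1, 888 without V3, 99, 143 and 120 without I1, I2 and I3). Of the 10 genes, 1 was called, 2 with the GC offset (Slc39a7 and Slc39a4), and 1 to 3 when 1 library was left out. Slc39a7 was called in all 13 alternatives, and Mt1 and Slc30a10 were added without V1, Slc39a4 without V2 and Slc30a7 without V3. The alternatives reuse the same libraries and are not independent of each other. As the 10 genes were selected with this contrast known, nothing is read from these calls. Of the pathway genes, 1 was called, 0 with upper-quartile factors, DESeq2 or voom, and 0 to 8 when 1 library was left out. With a replicate block the counts were 321 genes, 1 of the 10 and 2 pathway genes (Saa1 and Saa2, in place of Slc30a9). The sample labels do not say whether the replicate numbers pair the samples. Same-numbered libraries correlated at -0.039, 0.069 and 0.017 in their deviations from the group means, and 3 of 6 libraries correlated best with their own number. With 3 libraries per group these values cannot settle whether samples were paired. No alternative gave a gene with an adjusted p under 0.05, the smallest being 0.114 without V1 in edgeR. Levels of Slc39a7 rest on 13 to 147 counts per library. Those of Mt2 and Slc39a7 may rest on the exonic bases they do not share, as the counting settings are not given.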
